A study of Mus musculus with 4 samples.

Results

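The clustered histone genes are the genes of the Hist1, Hist2, Hist3 and Hist4 clusters, taken here as every gene of the deposited count table whose symbol begins with Hist1h, Hist2h, Hist3h or Hist4h. There were 63 such genes among 18751 gene names. By symbol, 6 belong to the linker histone H1, 16 to H2A, 17 to H2B, 11 to H3 and 13 to H4. In the GENCODE M21 annotation Hist1h2aj of H2A and Hist3h2bb-ps of H2B are pseudogenes. Of the 63 genes, 53 lie on chromosome 13 (the Hist1 cluster), 6 on chromosome 3, 3 on chromosome 11 and 1 on chromosome 6 in that annotation. The labels call the cells PMN-MDSCs, the polymorphonuclear class of myeloid suppressor cells, which resemble neutrophils and dampen T cell responses to tumours. In every library erythroid markers took more of the counts than either list of neutrophil markers, as given below. Donor mice were C57BL/6, aged 8 weeks, and bore B16-F10 melanoma placed under the skin, and a magnetic neutrophil kit enriched the cells at day 15. Each genotype has 2 libraries: wild type (WT), and CD300ld KO, in which a CD300 family receptor of myeloid cells is knocked out. The labels do not say which organ the cells came from, how the allele was made, or whether each library came from 1 animal, so a p-value here speaks only of variation among these 4 libraries, and that variation may be technical.

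Histones package DNA into nucleosomes, with H2A, H2B, H3 and H4 in the core and H1 on the linker. The clustered genes are known as replication-dependent: cells make most of their mRNA during S phase, when new DNA must be packaged. Those mRNAs usually end in a conserved stem-loop in place of a poly(A) tail, and the stem-loop is bound by SLBP, the protein that guides their 3' processing, translation and decay. Some clustered genes are also known to give polyadenylated transcripts that run past the stem-loop. Mature neutrophils do not divide, while their marrow precursors, erythroblasts and B cell precursors do.

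The stem-loop is shown because it separates these transcripts from most other mRNAs. It was found after the stop codon in the longest annotated coding transcript of 39 of the 63 genes. In 21 of those the annotated transcript continued for more than 100 bases after the stem-loop, and in the other 18 it ended within 100 bases. Many of the 24 transcripts without a match are annotated as the coding sequence alone or little more. The 16 bases of the stem-loop took 5 forms, and the commonest was found in 23 genes. The sequences below run 5' to 3' as RNA-sense DNA from GENCODE M21 transcripts, all of chromosome 13, with the stem-loop in capitals and 5 bases of flank on either side.
Hist1h1c: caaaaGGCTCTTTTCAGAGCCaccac
Hist1h2ac: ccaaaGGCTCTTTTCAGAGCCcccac
Hist1h2be: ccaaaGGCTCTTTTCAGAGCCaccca
Hist1h3d: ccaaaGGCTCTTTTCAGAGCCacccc
Hist1h4d: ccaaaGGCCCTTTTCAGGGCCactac
Hist1h4i: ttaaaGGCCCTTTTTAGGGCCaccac
The H1, H2A, H2B and H3 genes shown share 1 form, and Hist1h4d and Hist1h4i each have another.

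Clustered histone mRNA took about double the share of counts in KO libraries that it took in WT libraries. The 63 genes together held 1018 and 919 counts in KO libraries 1 and 2 and 378 and 563 counts in WT libraries 1 and 2. As a share of all counts this was 0.123% (95% Wilson interval 0.115% to 0.130%) and 0.110% (0.103% to 0.117%) in KO. In WT it was 0.0560% (0.0507% to 0.0620%) and 0.0611% (0.0563% to 0.0664%). Both KO libraries lay above both WT libraries, and none of the KO intervals touched a WT interval. These intervals cover counting error only. The mean summed level was 1196 ± 122 CPM in KO and 602 ± 30.4 CPM in WT (CPM is the read count relative to the TMM-scaled library total; mean ± SD, n = 2 each), a ratio of 1.99. This sum includes genes with few counts and needs no filter on low values, and it is given as a description with no test. In bulk RNA, more cells with histone mRNA, more histone mRNA per cell and a larger polyadenylated part of it cannot be told apart. Libraries made from poly(A) RNA would miss most mRNAs that end in the stem-loop. The counts do not show which forms were captured.

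Each of the 5 histone types showed a ratio near that of the whole. The 6 H1 genes summed to 428 and 400 CPM in KO and 207 and 219 CPM in WT, a ratio of the means of 1.94. The 16 H2A genes summed to 224 and 179 CPM in KO and 89.1 and 109 CPM in WT, a ratio of 2.04. H2B and H3, the next groups of core histones, had the narrowest WT spread. The 17 H2B genes summed to 263 and 250 CPM in KO and 131 CPM in each WT library, a ratio of 1.96. The 11 H3 genes summed to 147 and 121 CPM in KO and 66.1 and 68.7 CPM in WT, a ratio of 1.99. The 13 H4 genes summed to 219 and 161 CPM in KO and 87.6 and 96.4 CPM in WT, a ratio of 2.07. In no type did the genotypes overlap. KO library 1 was the higher KO library for every type, with the widest gap in H4. The mix of types was also alike: H1 genes held 33.4% and 36.0% of the clustered histone counts in KO and 35.7% and 35.2% in WT.

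**Figure D1:**
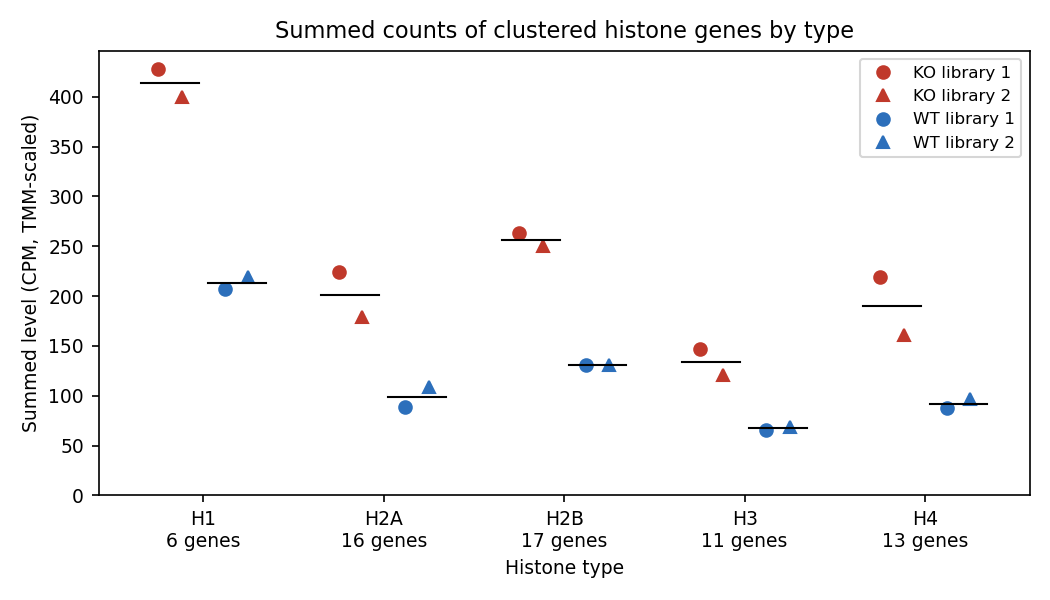
Summed TMM-scaled CPM of the clustered histone genes of each type (x axis), with 1 point per library and a black line at each genotype's mean. For all 5 types both KO libraries (red) lie above both WT libraries (blue), with ratios of the means from 1.94 for H1 to 2.07 for H4.

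By genomic cluster the sums were 1174 and 977 CPM in KO and 522 and 577 CPM in WT for Hist1, with a ratio of the means of 1.96. The 6 Hist2 genes had 74.3 and 76.1 CPM in KO and 44.6 and 34.3 CPM in WT, a ratio of 1.91. The small Hist3 cluster, with 3 genes, had 30.2 and 50.7 CPM in KO and 10.8 and 11.1 CPM in WT, a ratio of 3.71. Relative to their mean its KO libraries differed most from each other among the 4 clusters, and it rested on 24 and 42 counts in KO, against 7 and 10 in WT. KO libraries were above WT libraries for these clusters on 3 chromosomes.

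Single genes were far less certain than the sum, because most had few counts. A filter on low counts passed 21 of the 63 genes to the test among 7685 genes in all. In edgeR's quasi-likelihood test of KO against WT with Benjamini-Hochberg adjustment over those 7685 genes, 2 clustered histone genes were higher in KO and 0 were lower, against a background of 2.71% of all tested genes higher and 3.27% lower. At an unadjusted p below 0.05, 12 were higher and 0 were lower, where 9.69% of all tested genes were higher. DESeq2 called 0 higher and 0 lower, and limma-voom 1 higher and 0 lower. Over all 7685 tested genes DESeq2 called 124 higher and 175 lower, and limma-voom 220 higher and 228 lower. All 21 fitted log2 fold changes were above 0, with a median of 1.01 and a range from 0.31 to 2.09, and 50.3% of all tested genes were above 0 with a median of 0.00. Genes that passed the filter through their KO counts alone would tend to be higher, so the counts over the 21 are not a measure of the family. Over all 63 genes, tested or not, the mean CPM was higher in KO for 59 and lower for 4. Both KO libraries lay above both WT libraries for 40 of the 63 genes, or 63.5%, and below for 0. Among all names with a count, both KO libraries were above for 15.7% and below for 16.3%. Among all tested genes these shares were 24.5% and 23.6%.

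**Figure D2:**
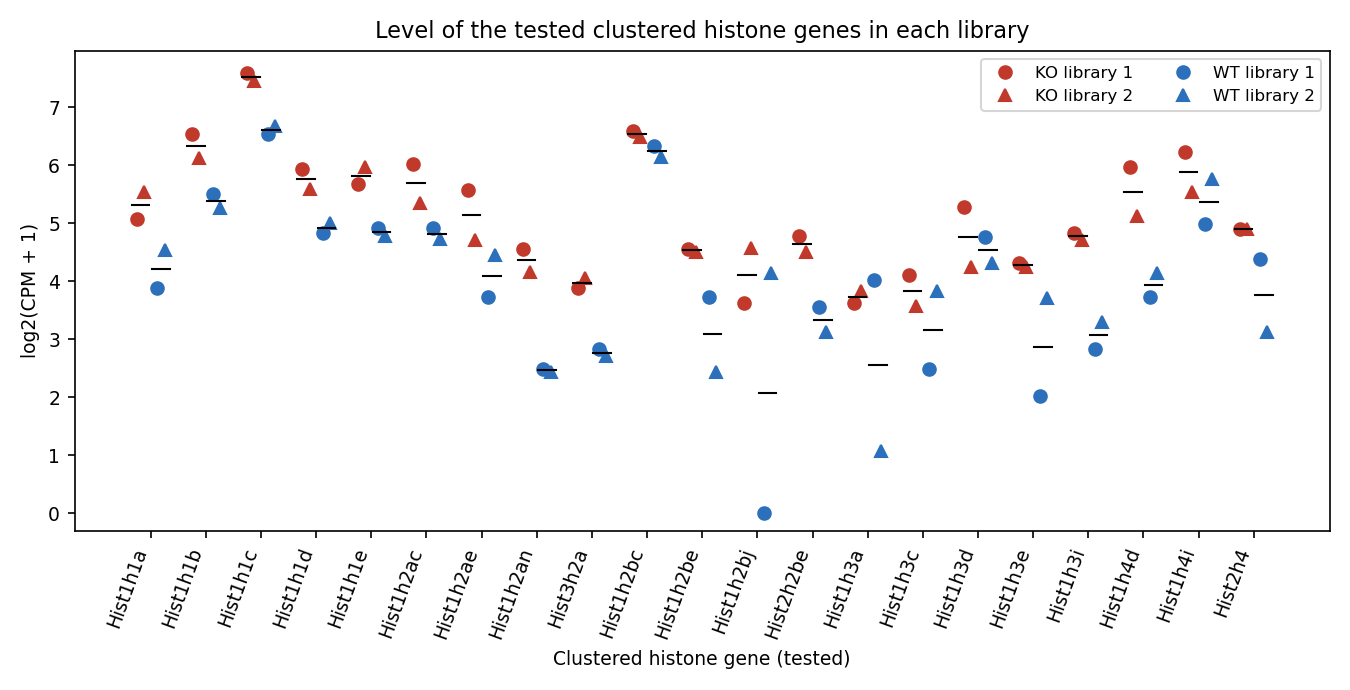
Level of each tested clustered histone gene on a log2(CPM + 1) axis, ordered by histone type, with 1 point per library and a line at each genotype's mean. Both KO libraries (red) lie above both WT libraries (blue) for 16 of the 21 genes, and Hist1h2bj, at 0 in WT library 1, and Hist1h3a, low in WT library 2, show how far single WT libraries can stray at low counts.

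Among the linker histones, Hist1h1c passed the test. Hist1h1c encodes the H1.2 subtype, a common H1 of somatic cells. It had 153 and 145 counts in KO, against 60 and 92 in WT, or 193 and 175 CPM against 92.2 and 102 CPM. Its log2 fold change was 0.92 ± 0.21 (SE, edgeR adjusted p = 0.0118), 1.89-fold higher in KO, and the groups were well apart. The call held when any 1 library was left out, with adjusted p from 0.00999 to 0.0456, and ended in DESeq2 (adjusted p = 0.0543). Hist1h1b, encoding H1.5, had 73 and 57 counts in KO, against 29 and 34 in WT. Its log2 fold change was 0.97 ± 0.30 (edgeR adjusted p = 0.0735), and 1.17 with an adjusted p of 0.0440 without KO library 2. The groups did not overlap for Hist1h1b, but it did not pass the test with all libraries.

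The remaining replication-dependent H1 genes had much the same ratio with wider errors. Hist1h1a, encoding H1.1, had 26 and 38 counts in KO, against 9 and 20 in WT, with a log2 fold change of 1.09 ± 0.45 (edgeR adjusted p = 0.190). Hist1h1d, encoding H1.3, had 48 and 39 in KO, against 18 and 28 in WT, with 0.86 ± 0.35 (adjusted p = 0.191). Hist1h1e, encoding H1.4, had 40 and 51 in KO, against 19 and 24 in WT, with 1.01 ± 0.35 (adjusted p = 0.113). For each of the 5 tested H1 genes both KO libraries lay above both WT libraries, as they did for 24.5% of all tested genes. The fold changes of the 5 genes ran from 0.86 to 1.09 on the log2 scale. Hist1h1t, the testis H1, had 0 and 1 counts in KO, against 0 in both WT libraries. Per kilobase of coding sequence Hist1h1c stood at 288 ± 19.6 CPM in KO and 152 ± 10.8 in WT, above Hist1h1b at 120 ± 24.3 and 61.2 ± 7.24 (mean ± SD, n = 2 each). Any reads counted in the annotated 3' extension of Hist1h1c would add to its level, so the order of these levels may not be that of the coding mRNA.

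Of the H2A genes 4 were tested and none passed. Hist1h2ac had 51 and 33 counts in KO, against 19 and 23 in WT, or 64.2 and 39.8 CPM against 29.2 and 25.5, with a log2 fold change of 0.93 ± 0.38 (edgeR adjusted p = 0.190). Hist1h2ae had 37 and 21 in KO, against 8 and 19 in WT, with 1.07 ± 0.49 (adjusted p = 0.247). In both genes KO library 1 was well above KO library 2, and the groups stayed apart. Hist1h2an had 18 and 14 counts in KO, against 3 and 4 in WT, with the highest fitted value of all 21 genes, 2.09 ± 0.70 (adjusted p = 0.0951). Its coding sequence shares 85.8% of its 50-base windows with other genes, so reads could be split between them. A predicted gene that lies across it on the opposite strand may make up part of this share. Hist3h2a of the Hist3 cluster had 11 and 13 counts in KO, against 4 and 5 in WT, with 1.32 ± 0.71 (adjusted p = 0.336).

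Other H2A genes had too few counts to test, and 7 of them held at least 10 counts over the 4 libraries. Hist1h2ao had 17 and 10 counts in KO, against 3 and 8 in WT. Hist1h2ai had 3 and 11 in KO, against 2 and 2 in WT. In these genes both KO libraries were higher in CPM. Hist1h2ap had 9 and 10 in KO, against 6 and 10 in WT, and Hist2h2ac 7 and 12 in KO, against 6 and 11 in WT, close to equal. Hist1h2ab had 7 and 6 in KO, against 5 and 1 in WT. Hist1h2ak had 5 and 7 in KO, against 1 and 8 in WT, so that WT library 2 was above KO library 1. Hist1h2af had 3 and 2 in KO, against 1 and 5 in WT, and its mean was lower in KO. The untested H2A genes thus ranged from well above WT to near parity.

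Of the H2B genes 4 were tested and none passed. Hist1h2bc had the most counts of any H2B gene, 76 and 74 in KO, against 52 and 63 in WT, or 95.7 and 89.3 CPM against 79.9 and 69.8. Its log2 fold change of 0.31 ± 0.25 (edgeR adjusted p = 0.566) was the lowest of the 21 genes, although its genotypes did not overlap. Hist2h2be had 21 and 18 counts in KO, against 7 and 7 in WT, or 26.4 and 21.7 CPM against 10.8 and 7.76, with 1.39 ± 0.57 (adjusted p = 0.192). These genes differ in how distinct their sequence is: Hist2h2be shares 0 of its 50-base windows with another gene, while 97.6% of the coding windows of Hist1h2bc are shared. Hist1h2be had 18 and 18 in KO, against 8 and 4 in WT, with 1.46 ± 0.63 (adjusted p = 0.220), and moved to 2.27 with WT library 1 omitted and 0.84 with WT library 2 omitted. In the annotation Hist1h2be overlaps Hist1h1e on the same strand, so reads between them may be assigned to either. Hist1h2bj had 9 and 19 in KO, against 0 and 15 in WT, with 0.91 ± 0.84 (adjusted p = 0.629). The WT libraries of Hist1h2bj disagreed. The fitted change was 0.04 with WT library 1 omitted (adjusted p = 0.991) and 6.72 with WT library 2 omitted (adjusted p = 0.0383), where the WT library left has 0 counts.

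Among the untested H2B genes, 9 held at least 10 counts. Hist1h2bm had 15 and 9 counts in KO, against 0 and 2 in WT, and Hist1h2bb 14 and 4 in KO, against 1 and 2 in WT. Hist3h2ba had 9 and 18 in KO, against 3 and 5 in WT. These 3 were higher in both KO libraries. Hist1h2bg had 15 and 8 in KO, against 5 and 6 in WT, Hist1h2bn 7 and 5 in KO, against 1 and 3 in WT, and Hist1h2bq 6 and 8 in KO, against 1 and 3 in WT. Hist1h2bk had 8 and 2 in KO, against 3 and 2 in WT, and its groups overlapped. Hist1h2bl, with 0 and 5 in KO, against 4 and 1 in WT, also overlapped. Hist3h2bb-ps, annotated as a pseudogene, had 4 and 11 counts in KO, against 0 in both WT libraries, at least 2.39-fold higher in KO against a floor of 3 counts in each WT library.

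Of the H3 genes 5 were tested and none passed. H3 carries the N-terminal tail with much of the known histone modification. Hist1h3i had 22 and 21 counts in KO, against 4 and 8 in WT, or 27.7 and 25.4 CPM against 6.15 and 8.86, with a log2 fold change of 1.77 ± 0.57 (edgeR adjusted p = 0.0847). Hist1h3d had 30 and 15 in KO, against 17 and 17 in WT, or 37.8 and 18.1 CPM against 26.1 and 18.8, with 0.33 ± 0.49 (adjusted p = 0.800). Hist1h3i was clearly apart by genotype, while Hist1h3d rested on KO library 1 and turned to −0.30 without it. Hist1h3e had 15 and 15 in KO, against 2 and 11 in WT, with 1.18 ± 0.67 (adjusted p = 0.383). Hist1h3c had 13 and 9 in KO, against 3 and 12 in WT, with 0.53 ± 0.70 (adjusted p = 0.767). Hist1h3a had 9 and 11 in KO, against 10 and 1 in WT, with 0.70 ± 0.86 (adjusted p = 0.750), and turned to −0.31 without WT library 2. Hist1h3e moved to 0.58 with WT library 1 omitted and to 2.53 with WT library 2 omitted, and Hist1h3c to 0.02 and 1.53. In 3 of the 5 genes the genotypes overlapped. The untested Hist1h3f had 7 and 10 counts in KO, against 1 and 3 in WT, and Hist1h3g 9 and 5 in KO, against 2 and 4 in WT. Hist2h3c1 had 4 and 6 in KO, against 1 and 4 in WT, and Hist2h3c2 3 and 3 in KO, against 2 and 2 in WT.

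Of the H4 genes, which all encode nearly the same protein, Hist1h4d passed the test. It had 49 and 28 counts in KO, against 8 and 15 in WT, or 61.7 and 33.8 CPM against 12.3 and 16.6. Its log2 fold change was 1.69 ± 0.46 (edgeR adjusted p = 0.0393), 3.23-fold higher in KO. The groups were apart, but KO library 1 was nearly double KO library 2. Without KO library 1 the change was 1.19 (adjusted p = 0.346) and without WT library 1 the adjusted p was 0.0726. DESeq2 gave 1.70 (adjusted p = 0.147), limma-voom 1.57 (adjusted p = 0.0922) and the filter of 1 CPM in 2 libraries 1.70 (adjusted p = 0.0534).

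Hist1h4i was the most counted H4 gene and did not pass the test. It had 59 and 38 counts in KO, against 20 and 48 in WT, or 74.3 and 45.9 CPM against 30.7 and 53.2, with 0.48 ± 0.36 (edgeR adjusted p = 0.527). Its groups overlapped, as WT library 2 was above KO library 2. Hist2h4 had 23 and 24 in KO, against 13 and 7 in WT, with 1.11 ± 0.54 (adjusted p = 0.279), and moved to 1.87 with WT library 1 omitted and 0.53 with WT library 2 omitted. Hist1h4c, untested, had 14 and 10 counts in KO, against 1 and 5 in WT. Hist1h4h had 6 and 8 in KO, against 2 and 4 in WT, and Hist1h4f 5 and 4 in KO, against 1 and 4 in WT. These 3 were higher in CPM in both KO libraries. Hist1h4m had 4 and 8 in KO, against 4 and 0 in WT, and Hist1h4n 7 and 3 in KO, against 3 and 1 in WT, with overlap in both. Hist4h4, the sole gene of the family as taken here on chromosome 6, had 3 and 5 counts in KO, against 2 and 1 in WT.

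**Figure D3:**
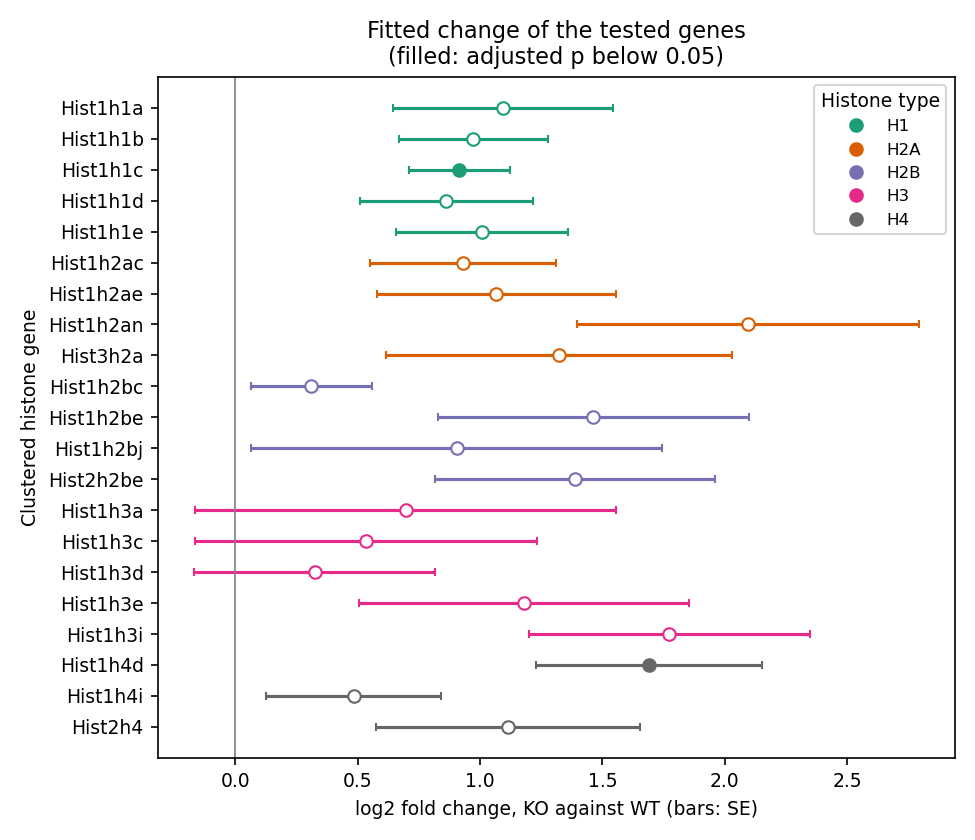
Fitted log2 fold change of KO against WT for the 21 tested clustered histone genes, with bars of 1 SE and colours by histone type. All points lie to the right of 0, and the filled points, Hist1h1c and Hist1h4d, are the 2 with an adjusted p below 0.05.

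The 42 untested genes together held 217 and 218 counts in KO, against 65 and 106 in WT, or 273 and 263 CPM against 99.9 and 117, a ratio of the means of 2.47. Both KO libraries were above both WT libraries, as for the tested genes, which summed to 1009 and 846 CPM in KO and 481 and 506 in WT. The 16 untested genes with under 10 counts each had from 1 to 8 counts and together 54 in KO and 13 in WT. There were 11 genes with 0 counts in both WT libraries and 1, Hist1h4a, with 0 in both KO libraries. A gene at 0 can hold up to 3 counts by counting error, which is 3.32 to 4.61 CPM per library. A 0 in a library therefore does not show that the gene is absent.

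Features of the annotated transcripts that the choice of genes did not use were used to divide the family. The 21 genes whose transcript runs more than 100 bases past the stem-loop summed to 743 and 607 CPM in KO and 324 and 358 CPM in WT, a ratio of the means of 1.98. The 18 whose transcript ends within 100 bases of it summed to 173 and 151 CPM in KO and 72.2 and 84.2 CPM in WT, a ratio of 2.07. The 24 without a match had 367 and 351 CPM in KO and 184 and 182 CPM in WT, a ratio of 1.96. All 3 groups kept KO above WT. The annotated extension says where a transcript can end and not which form these reads came from.

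Copies of 1 histone type are so alike that counts of single genes depend on how the authors placed reads that match several genes, which is not given in the sources used here. Of the 61 genes with an annotated coding sequence, 49 shared more than 50% of their 50-base coding windows with another gene, 11 shared all of them and 5 shared none. H1 genes were the most distinct, with 0 of 6 above 50%, against 14 of 15 for H2A and 11 of 11 for H3. A window counted as shared if it, or its reverse complement, lay in an annotated transcript of any other gene, predicted genes included. Predicted genes lie across many H2A genes on the opposite strand and may make up part of the H2A figures. Over whole transcripts, the 32 genes with at most 50% of windows shared summed to 1049 and 875 CPM in KO and 496 and 506 CPM in WT, a ratio of the means of 1.92. The other 31 summed to 233 and 234 CPM in KO and 84.5 and 117 CPM in WT, a ratio of 2.31. In both groups the KO libraries were above the WT libraries. Predicted genes also lie across Hist1h2ac, Hist1h2ae, Hist1h2an and Hist3h2a on the opposite strand in the annotation, and without a stated strand setting their reads cannot be told apart.

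Promoters are shown to describe the bases around the gene starts, and a link between any motif and the KO values was not tested. RefSeq promoters (GRCm38.p6, 250 bases before to 50 after the gene start) were matched for 55 of the 63 genes, with 56 promoters in all, since Hist1h2be has 2. The 3 shown are those of the 2 genes that passed the test and of Hist1h2ac, which carries an octamer. They are Hist1h1c at chr13:23738557-23738856 on the plus strand, Hist1h2ac at chr13:23683910-23684209 on the minus strand and Hist1h4d at chr13:23581318-23581617 on the plus strand. Each runs 5' to 3' on the gene's strand, and capitals mark the motifs searched on both strands. These were the CCAAT box (letters CCAAT), the TATA box (letters TATAAA), the octamer (letters ATTTGCAT) and the H1 box (letters AAACACA), and none of them contains another.
Hist1h1c: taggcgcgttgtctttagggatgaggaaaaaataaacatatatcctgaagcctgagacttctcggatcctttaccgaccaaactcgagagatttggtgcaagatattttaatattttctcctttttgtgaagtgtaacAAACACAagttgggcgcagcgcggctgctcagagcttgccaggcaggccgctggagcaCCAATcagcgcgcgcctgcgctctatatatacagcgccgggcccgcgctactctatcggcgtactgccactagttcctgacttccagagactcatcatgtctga
Hist1h2ac: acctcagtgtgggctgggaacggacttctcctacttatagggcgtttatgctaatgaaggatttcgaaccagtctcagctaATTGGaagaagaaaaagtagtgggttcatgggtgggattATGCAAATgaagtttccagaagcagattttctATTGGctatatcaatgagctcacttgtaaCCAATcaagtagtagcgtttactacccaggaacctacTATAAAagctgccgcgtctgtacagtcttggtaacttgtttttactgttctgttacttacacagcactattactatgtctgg
Hist1h4d: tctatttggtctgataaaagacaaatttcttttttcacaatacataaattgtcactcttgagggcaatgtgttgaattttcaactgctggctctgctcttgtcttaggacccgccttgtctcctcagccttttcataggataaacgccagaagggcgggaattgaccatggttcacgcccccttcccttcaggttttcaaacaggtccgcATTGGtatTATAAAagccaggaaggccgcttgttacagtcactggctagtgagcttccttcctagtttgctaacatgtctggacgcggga
CCAAT was found in 47 of the 56 promoters (83.9%) and in 37.4% of all 32851 promoters of the table. It was in all 6 H1, 14 H2A, 15 H2B and 9 H3 promoters and in 3 of 12 H4 promoters. TATAAA was in 32 of 56 (57.1%, against 13.6% of all), including 8 of 12 H4 promoters. The octamer was in 13 of 56 (23.2%, against 1.74% of all), 7 of them H2A and 6 H2B. For Hist1h2be the octamer was in 1 of its 2 promoters. Promoters of some H2A and H2B pairs cover nearly the same bases on opposite strands, so 1 site can count for both genes. Hist1h2ae and Hist1h2bg are such a pair for the octamer, and these counts are not of independent sites. The H1 box was in 8 of 56 (14.3%, against 7.18% of all), including 5 of 6 H1 promoters. A match describes the letters of the window and not binding.

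Genes that act with the clustered histones were called at a share near that of all tested genes, 2.71% higher and 3.27% lower. Of 17 tested genes for histone mRNA transcription and processing, 0 were higher and 0 lower in edgeR (2 higher and 1 lower at an unadjusted p below 0.05, and 0 and 0 in DESeq2 and in limma-voom), with a median log2 fold change of −0.03. Slbp, the stem-loop binding protein, had 221 and 246 counts in KO, against 146 and 194 in WT, with 0.39 ± 0.17 (edgeR adjusted p = 0.211). Srrt, which links the RNA cap to 3' processing, had 0.37 ± 0.19 (adjusted p = 0.314). Of 20 histone chaperones 1 was higher and 0 lower (0 and 0 in DESeq2, 1 and 1 in limma-voom), with a median of 0.02. Cabin1, a partner of the HIRA chaperone, had 0.64 ± 0.16 (edgeR adjusted p = 0.0269), a call that ended in DESeq2 (adjusted p = 0.0887).

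Replication genes are usually transcribed in the same phase of the cycle as these histones. Of 33 tested S phase genes 0 were higher and 0 lower in edgeR (1 higher and 1 lower at an unadjusted p below 0.05, and 0 and 0 in DESeq2 and in limma-voom), with a median of 0.00. Rrm2, a subunit of ribonucleotide reductase, had 454 and 514 counts in KO, against 398 and 452 in WT, with 0.10 ± 0.15 (edgeR adjusted p = 0.784). Mcm5, of the replicative helicase, had 307 and 264 in KO, against 247 and 376 in WT, with −0.18 ± 0.16 (adjusted p = 0.617). For both genes the libraries of the genotypes overlapped. Of 24 mitosis genes 2 were higher and 0 lower in edgeR, where 2.71% of all tested genes were higher and 3.27% lower. At an unadjusted p below 0.05, 8 were higher and 0 lower, where 9.69% of all tested genes were higher. DESeq2 called 1 higher and 0 lower, and limma-voom 2 and 0. The median was 0.26, and 22 of the 24 were above 0, against 50.3% of all tested genes. Both KO libraries were above both WT libraries for 11 of the 24 and below for 1, against 24.5% and 23.6% of all tested genes. Mki67, the proliferation marker Ki-67, had 993 and 1027 counts in KO, against 416 and 626 in WT, with 0.90 ± 0.13 (adjusted p = 0.000264), and Cenpe, a kinetochore motor, had 0.89 ± 0.25 (adjusted p = 0.0456). The call of Cenpe ended in DESeq2 (adjusted p = 0.201).

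Replacement histones are usually made throughout the cycle, though not each gene listed here need be. The list holds histone genes without a cluster symbol, and their distance from the clusters was not checked. Of 9 tested replacement histone genes, 2 were higher and 0 lower in edgeR, where 2.71% of all tested genes were higher and 3.27% lower. At an unadjusted p below 0.05, 3 were higher and 1 lower, where 9.69% of all tested genes were higher. DESeq2 called 1 higher and 0 lower, and limma-voom 2 and 0. The median was 0.25. H2afx, encoding the H2A.X of the DNA damage response, had 362 and 336 counts in KO, against 129 and 221 in WT, with 0.95 ± 0.17 (edgeR adjusted p = 0.00208). H2afj had 153 and 170 in KO, against 64 and 116 in WT, with 0.80 ± 0.20 (edgeR adjusted p = 0.0268), a call that ended in DESeq2 (adjusted p = 0.121). Their fitted changes were close to the median of the clustered genes. H3f3b, the most counted H3.3 gene, had 760 and 894 in KO, against 600 and 828 in WT, with 0.15 ± 0.13 (adjusted p = 0.597). Its counts are uncertain, since H3.3 genes and their copies are much alike. H2afy, encoding macroH2A1, had 23 and 25 in KO, against 39 and 54 in WT, with −1.01 ± 0.34 (adjusted p = 0.0935). H3f3b and H2afy were chosen after their values were seen.

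**Figure D4:**
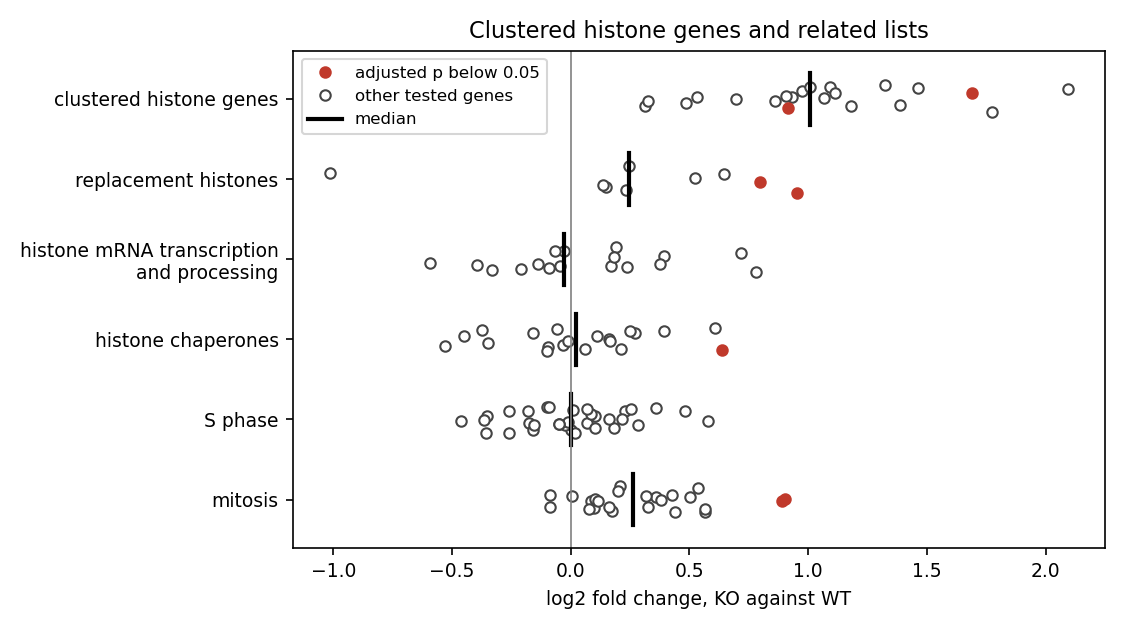
Log2 fold change of KO against WT for each tested gene (circles) of the clustered histones and of related lists, with a black line at the list's median. The median is 1.01 for the clustered histone genes, 0.25 for replacement histones, 0.26 for mitosis genes and 0.00 for S phase genes.

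Set against other genes of the same library, which needs no scaling between libraries, the clustered histones had 25.7 and 21.8 counts per 100 S phase counts in KO and 10.9 and 13.0 in WT. Against mitosis genes they had 20.9 and 17.8 per 100 counts in KO and 11.6 and 13.6 in WT. Against replacement histones they had 55.4 and 45.4 in KO and 31.8 and 32.1 in WT. KO libraries were above WT libraries for each of these.

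**Figure D5:**
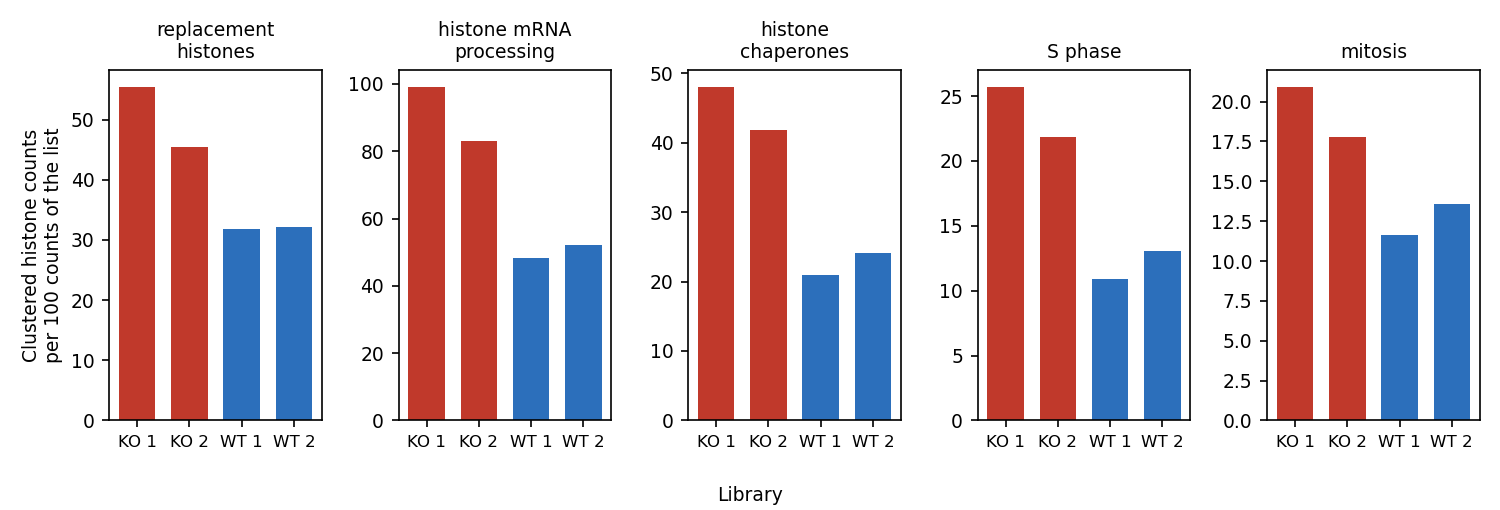
Summed counts of the 63 clustered histone genes per 100 summed counts of each related list (panels), 1 bar per library, KO in red and WT in blue. Per 100 S phase counts the bars stand at 25.7 and 21.8 in KO and 10.9 and 13.0 in WT, and KO is above WT in all 5 panels.

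Markers of other cells moved between the same libraries, and their part in the histone values was not tested. The libraries held 674599 to 920839 counts each. Erythroid markers (18 of 19 in the table, none at 0 in a library) took 19.9% to 21.1% of counts in KO and 15.4% to 16.5% in WT, and 13 of 18 were higher and 0 lower. Neutrophil granule genes (13 of 13) took 0.308% to 0.333% in KO and 1.95% to 2.40% in WT, and all 13 were lower. Mature neutrophil genes (10 of 10) took 0.295% to 0.305% in KO and 1.73% to 1.82% in WT, and 4 were lower. Ly6g, which defines mouse neutrophils, had 8 counts in each KO library and 49 and 90 in WT. B cell markers (12 of 16) took 0.559% to 0.639% in KO and 0.428% to 0.509% in WT, and T cell markers (10 of 10) 0.0383% to 0.0423% and 0.0248% to 0.0277%, with 0 calls in each in edgeR (3 higher at an unadjusted p below 0.05 in each, 0 in DESeq2, and 1 and 0 higher in limma-voom). Monocyte and macrophage markers (12 of 12) took 0.0537% to 0.0734% in KO and 0.141% to 0.156% in WT, and 5 were lower. Melanoma markers were nearly absent, with 2 of 7 in the table and 0 to 3 counts per library. The targeted gene Cd300ld had 2 and 3 counts in KO, against 0 and 11 in WT, too few to check the genotype labels.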

How the data were processed

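RNA from 4 libraries was measured, 2 per genotype. Values are raw gene-level read counts, whole numbers, in a table deposited by the authors. Bowtie 0.12.2 is named, with the builds mm8 and mm9, per the submitters' processing notes. For the counting program, annotation, strand and multi-read settings: not given in the sources used here. Per the labels' protocols, libraries were made with an Illumina TruSeq RNA kit. Column names gave the genotype and not the sample, so library numbers are names only.

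The table's 21831 rows held 18751 names, and each name was kept once, since rows of a name were identical. The main test was that of edgeR 4.0.16 under R 4.3.3 (TMM scaling, filterByExpr at count 10 and total 15, quasi-likelihood test, Benjamini-Hochberg over 7685 genes, threshold 0.05). The fit was tested on simulated data. The SE is the log2 fold change divided by the square root of F. CPM use TMM-scaled library sizes. All tested members were named, the called ones and the 2 most counted per type with full values, and untested ones from a summed count of 10. The members and lists were chosen with earlier results of these data known, and lists have no test. Alternatives were RLE factors, library size alone, no filter, 1 CPM in 2 libraries, DESeq2 1.42.0, limma-voom (limma 3.58.1), dropping every name that has several rows, and omitting each library with the same genes, the lone library assumed to vary like the others. Stem-loops, shared windows of 50 bases and overlaps came from GENCODE M21, matched by symbol for all 63 genes, and its coordinates were not used with the counts.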

Additional observations from a re-analysis of the deposited data

How the results depend on the processing

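The number of clustered histone genes called higher in KO was 2 with all libraries in edgeR, 1 with the filter of 1 CPM in 2 libraries, 0 in DESeq2 and 1 in limma-voom, and lay between 1 and 3 with any single library omitted (1 without KO library 1 or WT library 1, where Hist1h4d was lost). It was 2 with RLE factors, library size alone, no filter and names on several rows left out. The number called lower was 0 in every fit. The median log2 fold change of members ran from 0.97 to 1.16 over all alternatives, which did not all cover the same members. The 1.16 came from the 63 members fitted with no filter, and the 0.97 from 17 tested members with at most 50% of windows shared. For the 21 members of the main test the median with no filter was 1.01. The median of all genes shifted by less than 0.1 in each alternative. Calls over all tested genes moved too: 208 of 7685 were higher in edgeR, 124 in DESeq2 and 220 in limma-voom. With the filter of 1 CPM in 2 libraries, 196 of 14053 genes were higher, and with no filter 253 of 18751. The ratio of mean shares, 1.98, lay between 1.88 and 2.09 with any single library omitted. It was 2.01 without haemoglobin and mitochondrial genes in the total, and 1.92 over the 32 members with at most 50% of windows shared, an alternative chosen after seeing the data. Of 231 single-gene alternatives, 2 turned sign: Hist1h3d to −0.303 without KO library 1 (up to 0.764 over single libraries omitted) and Hist1h3a to −0.315 without WT library 2 (up to 3.30), and the cause was not tested. A call was lost in 6 and gained in 2, all given with the genes above. No paired analysis was possible because the columns carry no number that ties a KO to a WT library. Depth limits single genes: the highest member had 153 counts in any library, and most had under 20.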
